A study of Homo sapiens with 4 samples.

Results

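Peaks that control and sgSNHG1 cells shared, and that lay more than 50 kb from every start of a protein-coding gene, made up 7202 of the 31519 peak pairs considered (22.8%, 95% Wilson interval 22.4 to 23.3). Accessible chromatin was measured by ATAC-seq, in which the Tn5 transposase inserts sequencing adapters into open DNA, in the MYCN-amplified neuroblastoma cell line SK-N-BE(2)C. All cells received constructs with Cas9, dual guide RNAs and a surrogate reporter and were then selected with puromycin. Control cells, labelled wildtype, carried a non-targeting control gRNA, and sgSNHG1 cells, labelled SNHG1 knockout, carried guides against SNHG1, the host gene of several small nucleolar RNAs, transcribed into a lncRNA. The protocol describes clones grown from single sorted cells, so differences between clones and effects of the guides cannot be told apart. The 2 replicates of a group were merged by the authors ahead of peak calling, so every value below comes from 1 pooled list per group, no replicate spread exists, and the conditions were compared without a test.

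The members were chosen by measured values, the peak calls of both lists, and by their position. A control peak and an sgSNHG1 peak formed a pair when each was the best overlap of the other with at least 1 bp in common, and the position of a pair was its control summit, the base with the most fragments. The starts were those of every transcript of 19969 protein-coding genes in GENCODE 44 (GRCh38). The interval around MYCN, which is amplified in this line, was left out with its 144 pairs, of which 127 were over 50 kb from a start. Here such pairs are called far pairs, and they are set beside 10655 pairs at 3 to 50 kb and 13662 pairs within 3 kb of a start, called promoter pairs. There were 47610 control peaks and 42682 sgSNHG1 peaks.

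Open chromatin far from genes is mostly enhancers, which transcription factors open and which act on promoters through DNA looping, and sites of CTCF, the factor that anchors loops and insulates domains. Enhancers are more particular to a cell type than promoters are, and in neuroblastoma they hold the binding sites of factors of the sympathetic lineage. Many of those factors are basic helix-loop-helix proteins, such as HAND2, which bind E-boxes, and GATA factors. Genes that direct development often stand alone in long stretches without other genes, called gene deserts, which hold their enhancers.

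Reference sequences (GRCh38) of 7 members show what lies under such summits, each as 201 bp centred on the control summit. The first 5 are the far pairs of highest control fold enrichment that hold a match to a given motif, and the capitals mark the match. The motifs are those of CTCF and of NFI factors, the AP-1 site TGAGTCA bound by FOS and JUN proteins, the site AGATAA of the GATA family of zinc finger factors, and the E-box CATCTG, which reads as its reverse complement on the other strand.
CTCF member near AADAT, chr4:170259664-170259864, plus strand: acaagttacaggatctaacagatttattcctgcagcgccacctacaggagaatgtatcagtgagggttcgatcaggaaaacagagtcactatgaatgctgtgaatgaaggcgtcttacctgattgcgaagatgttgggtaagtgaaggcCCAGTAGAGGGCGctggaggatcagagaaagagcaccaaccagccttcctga
AP-1 member near PAPPA2, chr1:176847135-176847335, plus strand: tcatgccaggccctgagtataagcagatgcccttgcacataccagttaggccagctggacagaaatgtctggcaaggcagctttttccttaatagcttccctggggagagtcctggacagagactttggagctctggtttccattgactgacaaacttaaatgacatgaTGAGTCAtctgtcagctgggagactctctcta
GATA member near TPTE, chr21:9301990-9302190, plus strand: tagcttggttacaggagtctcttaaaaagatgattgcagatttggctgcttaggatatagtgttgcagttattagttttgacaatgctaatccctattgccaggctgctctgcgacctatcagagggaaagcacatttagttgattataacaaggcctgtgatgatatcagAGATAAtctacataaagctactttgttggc
E-box member near WSB1, chr17:26603812-26604012, plus strand: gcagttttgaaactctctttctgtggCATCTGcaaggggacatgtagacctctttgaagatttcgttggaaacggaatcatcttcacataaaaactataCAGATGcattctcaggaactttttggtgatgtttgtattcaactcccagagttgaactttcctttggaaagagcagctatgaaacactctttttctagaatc
NFI member near CYLC2, chr9:103183811-103184011, plus strand: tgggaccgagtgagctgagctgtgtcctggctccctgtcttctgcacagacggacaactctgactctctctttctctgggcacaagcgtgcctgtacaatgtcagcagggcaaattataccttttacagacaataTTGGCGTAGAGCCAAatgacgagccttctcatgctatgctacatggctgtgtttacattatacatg

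The E-box member near WSB1 lies beside a centromere, and the exact 32 bp at its summit occur in 2 places of the genome. Copies that differ from these 32 bp were not counted. A member with an E-box whose summit sequence occurs once is therefore shown too, with the largest rise among the strongest pairs, those with a -log10 q of 10 or more in each list, both chosen after their values were seen. Capitals mark the E-box CATCTG and the E-box of the form CAGCTG, and in the last member also any match to the other motifs named above except NFI. The member with this rise holds both E-boxes and none of the other marked motifs.
Single-copy E-box member near NBPF8, chr1:120558672-120558872, plus strand: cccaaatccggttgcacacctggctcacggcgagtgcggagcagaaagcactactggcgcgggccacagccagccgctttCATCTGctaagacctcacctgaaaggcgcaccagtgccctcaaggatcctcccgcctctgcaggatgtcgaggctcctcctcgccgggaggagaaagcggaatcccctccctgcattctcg
Strong member with the largest rise, near CTNNA3, chr10:64846777-64846977, plus strand: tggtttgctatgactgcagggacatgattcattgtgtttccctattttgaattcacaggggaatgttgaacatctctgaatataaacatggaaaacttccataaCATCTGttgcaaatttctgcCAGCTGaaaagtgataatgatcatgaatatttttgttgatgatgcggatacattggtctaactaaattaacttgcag

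Values of these members are fold enrichments, that is, the number of fragments at the summit divided by the background expected around it in the same list. A small constant is added to both numbers before the division. The CTCF member near AADAT had 13.0 in control and 5.88 in sgSNHG1, from pileups of 48 and 15 fragments, and it lies on chromosome 4, which is described further on. The AP-1 member near PAPPA2 had 14.5 and 11.3. The GATA member near TPTE had 19.0 and 13.2, and the NFI member near CYLC2 had 15.7 and 14.3. These members were picked for a high control value, which favours a lower value in the other list, so their ratios say nothing of the motifs. The E-box members stood at 34.4 in control and 42.2 in sgSNHG1 near WSB1 and at 18.4 and 18.0 near NBPF8.

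Far pairs were thinly spread over a large territory. Sequence more than 50 kb from every coding start covered 1373 Mb, 47.2% of the genome on chromosomes 1 to 22 and X, and held 5.24 far pairs per Mb. The density was 8.64 pairs per Mb at 3 to 50 kb and 44.9 within 3 kb. The distance of a far pair to the nearest start ran from 50003 to 5393056 bp with a median of 134397 bp, and 46.7% lay upstream of that start. In all, 3299 far pairs were intergenic (45.8%), 1834 lay in introns of non-coding genes (25.5%), 1705 in introns of protein-coding genes (23.7%) and 364 in exons (5.05%). A start of a non-coding gene was within 3 kb of 1031 far pairs (14.3%), most often that of a lncRNA, with 771 pairs.

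The introns that held far pairs belonged to very long genes. The 678 protein-coding host genes had a median length of 368 kb, against 27.5 kb for all protein-coding genes. A short gene has no intron base over 50 kb from its own start, so the rule itself favours long genes. CTNNA2, an adhesion-linked catenin of neurons, and LSAMP, a cell surface adhesion protein of the limbic system, held 20 far pairs each in introns. Next came CAMTA1 with 16, ASTN2 with 14, and AGBL4, GSE1, MAML3, NRG1 and ROBO2 with 13 each, followed by PLXNA4 with 12. NRG1 encodes a growth factor for neural crest and glial cells, ROBO2 is an axon guidance receptor for SLIT proteins, and PLXNA4 is a semaphorin receptor. Among these 10 genes the median log2 fold enrichment ratio (sgSNHG1 against control) ran from -0.20 in MAML3 to 0.14 in AGBL4.

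Sharing was less complete far from genes than at promoters. Of 12396 control peaks over 50 kb from a start, 7224 overlapped an sgSNHG1 peak (58.3%, 57.4 to 59.1), against 61.0% at 3 to 50 kb and 78.0% within 3 kb. Of 10899 such sgSNHG1 peaks, 7409 overlapped a control peak (68.0%), against 72.9% and 89.8%. The depth behind these calls was lower far from genes, since the median control pileup was 26 fragments in far pairs and 37 in promoter pairs, and the part of depth in the lower sharing was not tested.

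In height, far pairs stood between the other zones. Fold enrichment in control had a median of 6.35 (quartiles 5.03 and 8.23) in far pairs, 6.03 at 3 to 50 kb and 7.17 in promoter pairs. In sgSNHG1 the medians were 6.25, 5.84 and 6.63. Far pairs were narrower than promoter pairs, with a median control width of 365 bp against 579 bp. They were also poorer in G and C, with 47.8% of the 201 bp in far pairs, 52.7% at 3 to 50 kb and 66.2% in promoter pairs. The windows of far pairs held a median of 2 CpG dinucleotides, those of promoter pairs 18. Positions 10 kb to either side of the far summits had 40.3% G and C.

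Between the conditions, the fold enrichment of far pairs was centred close to 0 on the log2 scale, while their peaks were narrower in sgSNHG1. The median log2 ratio of fold enrichment was -0.013 (95% interval of the median -0.023 to -0.0023), against -0.028 at 3 to 50 kb and -0.072 in promoter pairs. A lower value in sgSNHG1 was found for 51.5% of far pairs and 59.9% of promoter pairs. The sign of the far median is not firm: with the scaled pileup, the pileup at the summit divided by the smallest local background of its list, it was 0.018 (0.0050 to 0.037), and in promoter pairs -0.041. Width fell from a median of 365 bp to 261 bp, a median log2 ratio of -0.40 (-0.42 to -0.38), and 76.4% of far pairs were narrower. The width ratio was similar in the other zones, at -0.43 and -0.42. The median pileup was 26 fragments in control and 21 in sgSNHG1 in far pairs, and the part of this depth in the width was not tested. The summits of a pair lay a median of 40 bp apart, and 58.7% were within 50 bp of each other.

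**Figure D1:**
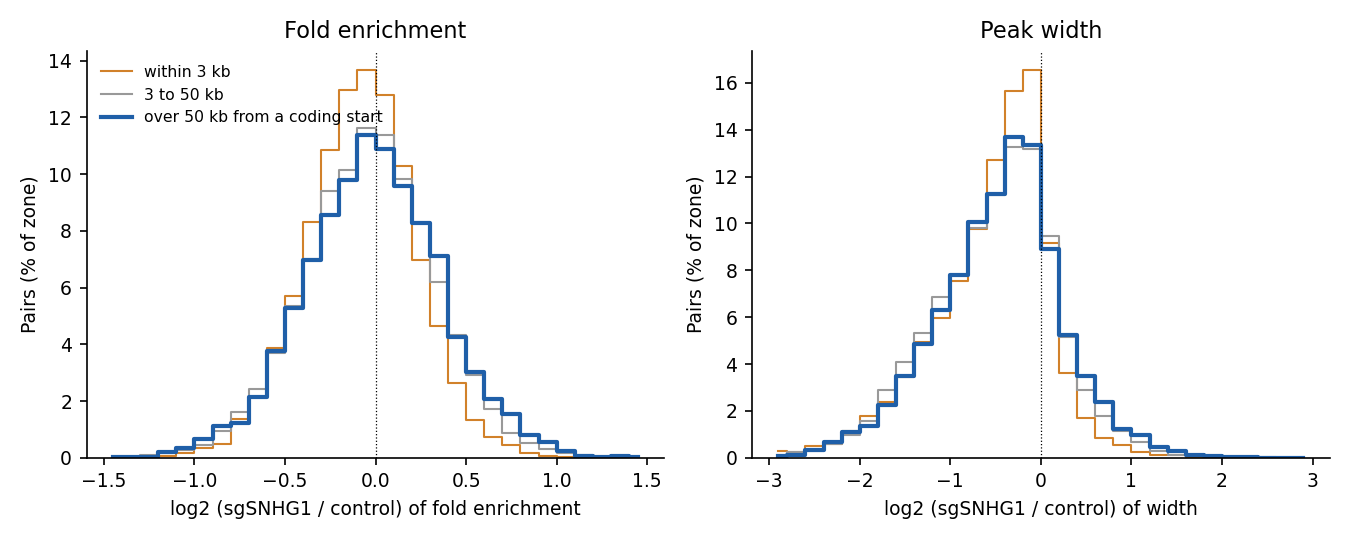
Distribution of the log2 ratio of sgSNHG1 over control for fold enrichment (left) and peak width (right), as a percent of the pairs of each zone. The far pairs (blue) are centred near 0 with a median of -0.013 in fold enrichment and reach further to the right than the promoter pairs (orange), while width is shifted to the left in all 3 zones, by a median of -0.40 in far pairs.

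Far pairs past a given fold were as common downward as in the whole set and more common upward. Fold enrichment was lower by at least 0.5 on the log2 scale in 685 far pairs (9.51%), against a background of 9.10% of all shared pairs. It was higher by at least 0.5 in 605 far pairs (8.40%), against 5.40% of all pairs and 2.81% of promoter pairs. At a log2 ratio of 1, 44 far pairs were lower (0.611%, background 0.447%) and 28 were higher (0.389%, background 0.222%). The ratios of single far pairs scattered about as much as counting alone would give: their robust SD was 0.37, and the median counting standard error from the pileups was 0.43. The calls of both lists chose these pairs, so the ratios are a description of 2 pooled lists. In the 3077 far pairs with the strongest calls, those whose -log10 q reached 10 in both lists, 116 were lower by at least 0.5 (3.77%, background 3.76% of the 15641 strong pairs of all zones) and 153 higher (4.97%, background 2.85%).

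The ratio was higher in the far pairs at greater distance, with small medians throughout. The median log2 ratio of fold enrichment was -0.040 in the 2663 far pairs at 50 to 100 kb, -0.023 in 2049 at 100 to 200 kb, 0.013 in 1646 at 200 to 500 kb, 0.044 in 582 at 500 to 1000 kb and 0.037 in 262 beyond. Pairs higher by at least 0.5 made up 6.23% of the nearest class and 14.1% of the farthest, against a background of 5.40% of all pairs. Among all far pairs over 100 kb from a start, 9.67% were higher by at least 0.5. A nearly equal share, 9.34%, was lower by as much, against a background of 9.10%. At the limit of the rule itself, the 100 pairs just inside (50003 to 51072 bp) had median fold enrichments of 6.14 in control and 6.03 in sgSNHG1, and the 100 just outside (48794 to 49943 bp) had 6.37 and 5.90. The nearest pair inside was assigned to PARVA and the nearest outside to OLFM1.

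Of the E-boxes, 2 were the most common of the 19 motifs searched under far summits. CATCTG was found within 100 bp of the control summit in 2386 far pairs (33.1%, 32.1 to 34.2), against 13.5% of windows of the same length 10 kb away and 10.2% of promoter pairs. CAGCTG was found in 1671 far pairs (23.2%), against 7.24% of the windows 10 kb away and 15.0% of promoter pairs. Either of these E-boxes was present in 3513 far pairs (48.8%, 47.6 to 49.9), in 19.5% of windows 10 kb away and in 23.0% of promoter pairs. Pairs at 3 to 50 kb had shares close to those of far pairs, with CATCTG in 31.5% and CAGCTG in 23.8%. Proteins of the HAND2 and TWIST1 kind bind such E-boxes. The E-boxes CACGTG, the site of MYC and MAX proteins, and CAGGTG, the site of ZEB and SNAI repressors, went otherwise: the first was in 3.58% of far pairs, 1.81% of windows 10 kb away and 6.54% of promoter pairs, and the other in 9.36% of far pairs and 14.0% of windows 10 kb away. Both strands were searched, each motif on its own, so that overlapping matches count for each.

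Of the other motifs, those of GATA, CTCF, AP-1 and NFI were more common under far summits both than 10 kb away and than in promoter pairs. The AGATAA site was in 1342 far pairs (18.6%), 15.1% of windows 10 kb away, 3.35% of promoter pairs and 11.6% of windows 10 kb from promoter summits. CTCF was in 217 far pairs (3.01%, 2.64 to 3.43), 0.0558% of windows 10 kb away and 1.30% of promoter pairs, a difference from promoter pairs of 1.72 percentage points (Newcombe interval 1.30 to 2.17). It was more common still at 3 to 50 kb, with 4.77%. AP-1 was in 460 far pairs (6.39%, 5.85 to 6.98), 3.27% of windows 10 kb away and 2.58% of promoter pairs, a difference of 3.80 points (3.19 to 4.44). NFI was in 87 far pairs (1.21%), against 0.0907% and 0.490%. At 3 to 50 kb, AP-1 was in 6.93% of pairs, NFI in 1.67% and GATA in 14.2%. AP-1 and NFI were thus no less common there than in far pairs, while GATA was less common. These intervals cover counting error only.

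A group of motifs was less common in far pairs than in promoter pairs. SP/KLF (GGGCGGG) was in 4.15% of far pairs and 36.5% of promoter pairs, TFAP2 (GCCNNNGGC) in 10.9% and 25.3%, ETS (CCGGAAGT) in 0.319% and 5.26%, YY1 (AAGATGGCG) in 0.111% and 2.15%, and NRF1 in 0.264% and 1.54%. TFAP2 and SP/KLF were nevertheless more common under far summits than 10 kb away, where they were in 3.10% and 0.858% of windows. Homeodomain (TAATTA), TEAD (ACATTCC), SOX (ACAATGG) and POU (ATGCAAAT) motifs were in 7.78%, 2.86%, 2.53% and 0.889% of far pairs and in 8.46%, 2.97%, 3.19% and 2.02% of windows 10 kb away, so that none of these 4 was more common under the summits. In promoter pairs they were in 1.06%, 1.27%, 1.29% and 0.834%. The median G and C content was 47.8% in far pairs, 66.2% in promoter pairs and 40.3% at 10 kb from far summits. Its part in the motif shares of these windows was not tested. RFX was found in 7 far pairs and REST in none. In all, 2700 far pairs (37.5%) held neither of these E-boxes and no match for CTCF, AP-1 or GATA factors.

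**Figure D2:**
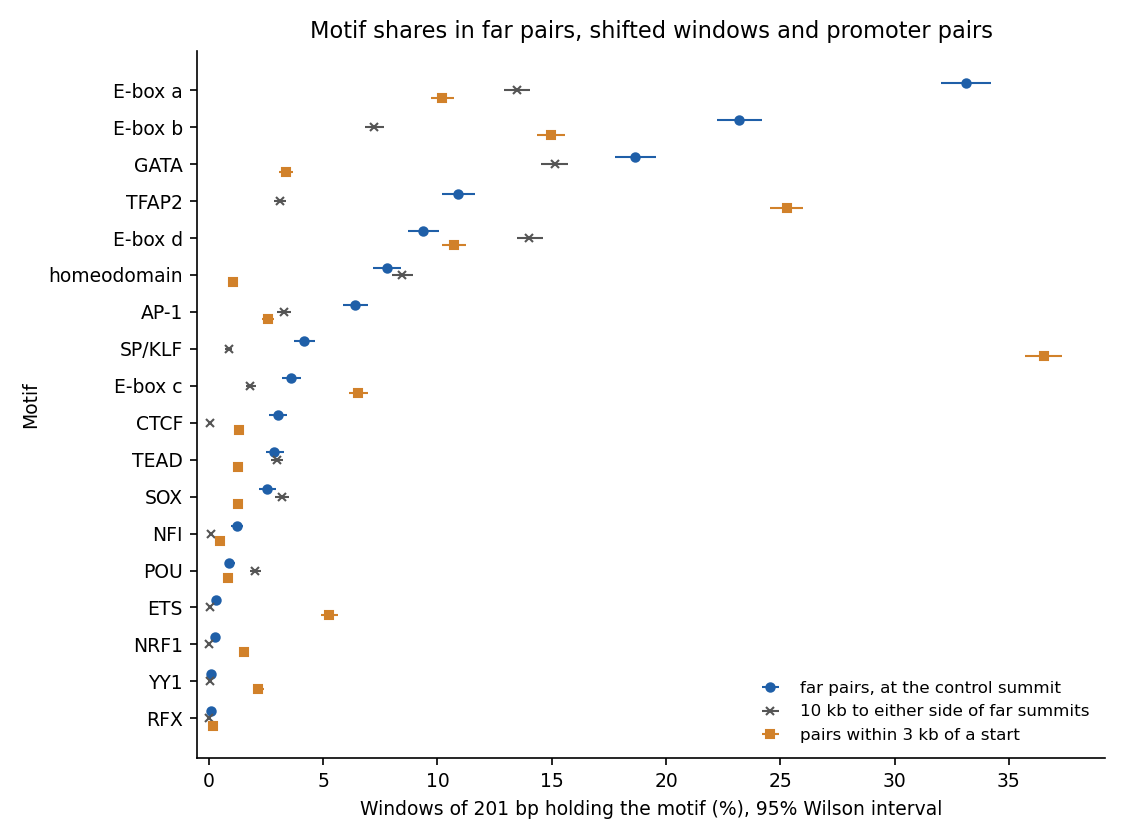
Percent of 201 bp windows that hold each motif, with 95% Wilson intervals, at the control summits of far pairs (blue circles), 10 kb to either side of them (crosses) and at promoter pairs (orange squares). E-box a is CATCTG, E-box b is CAGCTG, E-box c is CACGTG and E-box d is CAGGTG, and the far share stands highest above the other 2 for E-box a, at 33.1%.

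Matches of CTCF, NFI, AP-1 and CATCTG lay toward the centre of the peaks. Of the CTCF matches in far pairs, 39.8% were within 25 bp of the summit, and of the NFI matches 42.0%. For AP-1 the share was 33.3%, for CATCTG 31.6% and for GATA 29.3%, where an even spread over the window would give 26.0% to 27.3%. The homeodomain motif had 31.4% and POU 33.3%, the latter from 66 matches. CAGCTG, with 27.4%, was close to an even spread. TFAP2 matches, with 22.5%, and SP/KLF matches, with 22.6%, were not gathered at the summit.

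**Figure D3:**
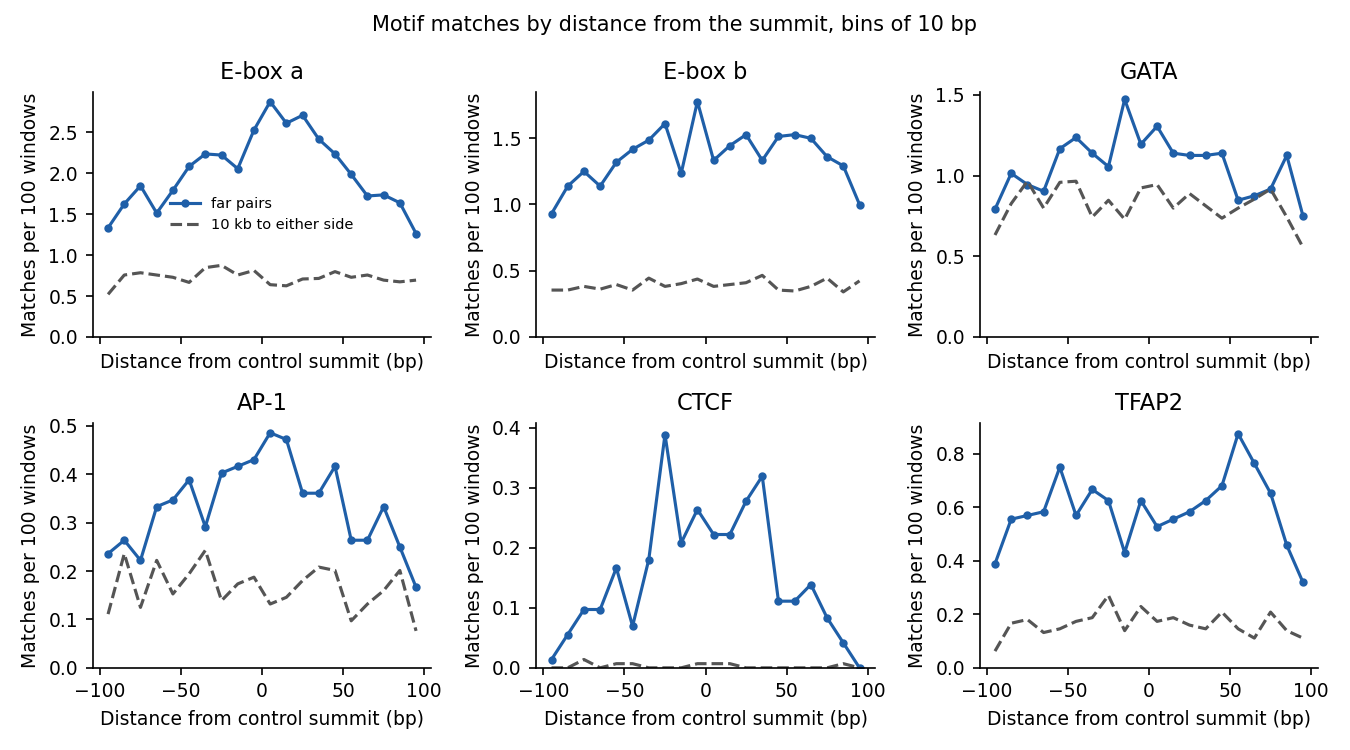
Motif matches per 100 windows in bins of 10 bp by distance from the control summit, for far pairs (solid) and for windows 10 kb to either side (dashed). E-box a is CATCTG and E-box b is CAGCTG. For E-box a the solid line is highest in the bin centred at 5 bp. For CTCF it is highest in the bins centred at -25 and 35 bp, on either side of the summit. The dashed line is flat for both.

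Motif shares shifted with distance from genes. CTCF fell from 3.45% of far pairs at 50 to 100 kb (2.83 to 4.22) to 1.53% beyond 1000 kb (0.595 to 3.86, 4 of 262 pairs), and CAGCTG from 25.6% (24.0 to 27.3) to 17.6% (13.4 to 22.6). GATA went from 17.3% (16.0 to 18.8) to 21.8% (17.2 to 27.1). CATCTG was at 32.9% in the nearest class, 35.1% at 200 to 500 kb and 26.7% in the farthest. The G and C content fell over the same classes, from a median of 50.2% to 41.3%, and its part in these shares was not tested.

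Far pairs with a given motif differed a little in their ratio between the conditions. The 460 with AP-1 had a median log2 fold enrichment ratio of 0.056 (0.016 to 0.097), and those without it -0.017 (-0.028 to -0.0063). Among those with AP-1, 48 were higher by at least 0.5 (10.4%, against 8.40% of far pairs and 5.40% of all pairs) and 26 lower (5.65%, against 9.51% and 9.10%). The 87 with NFI had a median of -0.14 (-0.22 to -0.065), with 19 lower by at least 0.5 (21.8%, against 9.51% of far pairs and 9.10% of all pairs) and 3 higher (3.45%, against 8.40% and 5.40%). The 299 with SP/KLF had -0.079 (-0.13 to -0.035). Pairs with CTCF (-0.036), GATA (-0.016), CATCTG (0.0037) and CAGCTG (0.018) had intervals of the median that held 0. No test was made of these subsets, and a median of 0.056 is small beside the counting error of a single pair.

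Chromosome 4 stood apart from the other chromosomes in scaled pileup. Its 293 far pairs had a median log2 ratio of -0.16 (-0.21 to -0.099) in fold enrichment and of -0.42 (-0.51 to -0.35) in scaled pileup. The scaled local background under these pairs also fell, by 0.27 on the log2 scale, and the 515 promoter pairs of the chromosome had a scaled pileup ratio of -0.73. The 54 far pairs of chromosome 22 had a similar fold enrichment ratio, -0.17, but with a wide interval that reached 0 (-0.30 to 0.000048) and a scaled pileup ratio of -0.028. On the 22 other chromosomes the median scaled pileup ratio of far pairs lay between -0.033 and 0.12. In scaled pileup 76.1% of the far pairs of chromosome 4 were lower in sgSNHG1, so the shift was common there but not uniform. The ratio of any far pair on chromosome 4 therefore has to be read beside the median of the chromosome. Without chromosomes 4, 9 and X, the median log2 ratio of fold enrichment was -0.0040. The part of DNA copy number in these values was not tested.

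**Figure D4:**
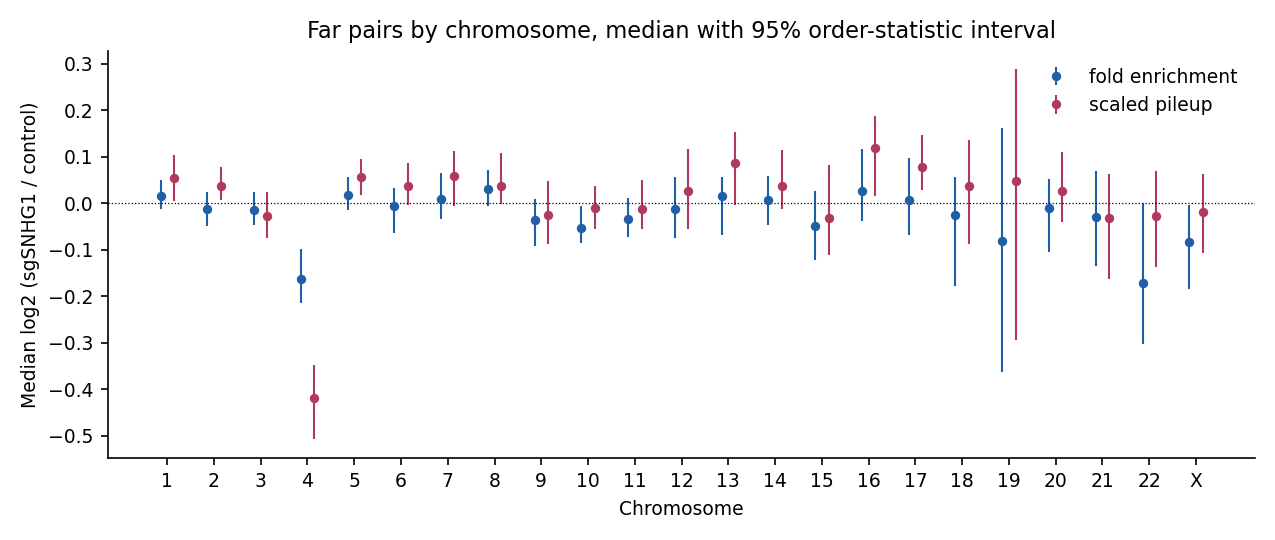
Median log2 ratio of sgSNHG1 over control of far pairs on each chromosome, for fold enrichment (blue) and scaled pileup (red), with 95% intervals of the median. Chromosome 4 is the lowest in scaled pileup at -0.42, while the other chromosomes lie between -0.033 and 0.12.

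The far pairs were spread over 2479 nearest genes, with a median of 2 pairs each. Of these genes, 1051 had a single pair, while 103 with at least 10 pairs held 1424 far pairs (19.8%). LSAMP led with 46 far pairs, 24.3 per Mb of the far territory nearest to it, followed by H3-7 with 34, DEFB115 with 32, CWH43 with 24 and RPIA with 23. The 32 bp at the summit occurred in several places for 26 of the 34 pairs of H3-7, 14 of the 32 of DEFB115, 14 of the 24 of CWH43 and 10 of the 23 of RPIA. MYC and SOX11 followed with 21 each, ZNF608 with 20, and NCAM2, PLXNA4 and TBL1XR1 with 19 each. A nearest gene is only a place name here, since an enhancer need not act on the closest start.

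Around LSAMP (ENSG00000185565.13, chr3:115802374-117139389, minus strand), 21 of the 46 far pairs lay inside the gene and 25 beyond its ends. Their control fold enrichments ran from 3.59 to 13.2 and the sgSNHG1 values from 2.87 to 15.3, with 24 pairs lower and 22 higher in sgSNHG1. The highest, at chr3:116815766-116816368 in an intron, 323 kb from the nearest start, had 13.2 in control and 15.3 in sgSNHG1. All 46 had a summit sequence that occurs once. Their median log2 ratio was -0.014, near that of all far pairs.

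**Figure D5:**
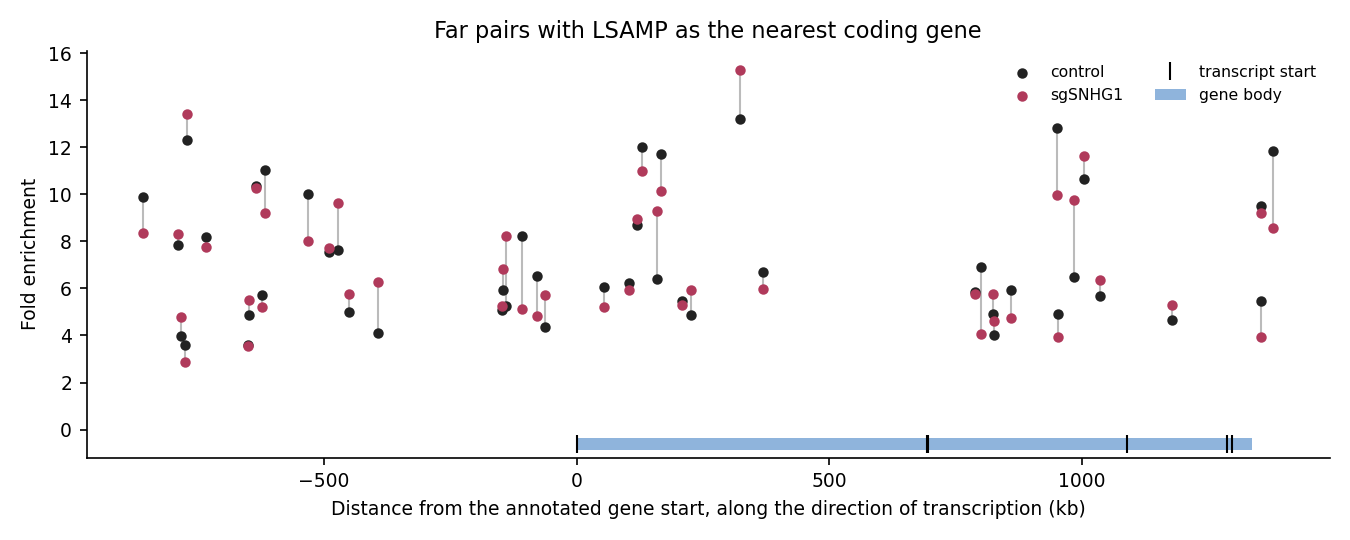
Far pairs with LSAMP as the nearest coding gene, by distance from the annotated gene start in the direction of transcription (kb), with fold enrichment in control (black) and sgSNHG1 (red) joined by a line. The pairs spread over the gene body and the sequence on both sides, from 3.59 to 13.2 in control, and 24 of the 46 are lower in sgSNHG1.

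MYC, SOX11 and SOX9 had far pairs across their gene deserts. The 21 pairs of MYC, a growth-promoting transcription factor, lay 55324 to 950042 bp from its starts, with medians of fold enrichment of 6.51 (control) and 5.82 (sgSNHG1), 11 lower and 10 higher. The 21 pairs of SOX11, a factor of immature neurons, had medians of 7.37 and 6.0, with 15 lower, 4 of them by at least 0.5, and 6 higher, none by as much. The largest fall near SOX11 was at chr2:5921177-5921659, from 9.30 to 5.23, with pileups of 42 and 15 and a log2 ratio of -0.83 (counting SE 0.43). The 18 pairs of SOX9, a neural crest factor, had medians of 5.80 and 5.42, with 11 lower and 7 higher.

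Neuroblastoma cells exist in an adrenergic (ADRN) and a mesenchymal (MES) state, each with its own transcription factors. Of 23 ADRN factors, 16 were the nearest gene of at least 1 far pair, 80 pairs in all, or 7.93 per Mb of their far territory, against 5.24 for all far pairs. In these 80 pairs the medians of fold enrichment were 7.23 (control) and 6.30 (sgSNHG1), 50 were lower and 30 higher, 9 were lower by at least 0.5 (11.3%, background 9.10%) and 1 was higher (1.25%, background 5.40%). The median log2 ratio was -0.062, against -0.013 in all far pairs, and -0.060 in the 76 pairs left without chromosome 4, of which 47 were lower. SOX11 alone gave 21 of the 80 pairs. Of 26 MES factors, 6 had far pairs, 26 in all and 18 of them near SOX9, or 6.97 per Mb of their far territory. Their medians of fold enrichment were 5.57 (control) and 5.62 (sgSNHG1), with 15 lower and 11 higher. The median log2 ratio was -0.052, close to that of the ADRN factors. In each direction 2 were past 0.5 (7.69%, background 9.10% lower and 5.40% higher). FOSL2, a subunit of AP-1, had 4 of the 26 pairs, with a median log2 ratio of 0.27. IRF2, NR3C1, RUNX1 and TBX18 had 1 each, with log2 ratios of -0.088, -0.35, 0.045 and -0.45.

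Among the ADRN factors, GATA3, ISL1, KLF7, ZNF536 and EYA1 followed SOX11 in number of pairs. GATA3, a zinc finger factor of the sympathetic lineage, had 10 pairs with a median of 8.56 in control and 8.15 in sgSNHG1, 6 lower and 4 higher and none by 0.5. ISL1, a factor of sympathetic and motor neurons, had 7 pairs with medians of 5.31 and 5.52. KLF7 and ZNF536 had 6 each, and EYA1 and TBX3 5 each. HAND2, a basic helix-loop-helix factor of sympathetic neurons, had 4 pairs, all in introns of non-coding genes on chromosome 4, where most far pairs were lower in scaled pileup. At chr4:173647996-173648299 the control value was 15.2 and the sgSNHG1 value 8.46, the largest of the falls near HAND2. Its other pairs had 9.31 and 9.65, 12.7 and 9.19, and 9.79 and 6.35. HAND2 was not among the 6 ADRN factors with the most pairs and was named after its values were seen.

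Genes of neuronal adhesion and synapses held many far pairs, and such genes are long. Of 39 such genes, 37 had at least 1 far pair, 294 in all, but at 4.37 per Mb, below the 5.24 of all far territory. Their medians of fold enrichment were 6.34 (control) and 6.37 (sgSNHG1), with 131 lower and 163 higher, 18 lower by at least 0.5 (6.12%, background 9.10%) and 31 higher (10.5%, background 5.40% and 8.40% of far pairs). After LSAMP came NCAM2 with 19 pairs, NRG1 with 17, and CNTN5, EPHA3 and ROBO2 with 14 each. NCAM2 and CNTN5 are cell adhesion molecules of neurons and EPHA3 is an ephrin receptor. NRG1 had 12 of 17 and ROBO2 11 of 14 pairs higher in sgSNHG1, with median log2 ratios of 0.14 and 0.12, while NCAM2 had -0.14 with 11 of 19 lower. In 10 of the 14 pairs of EPHA3 the summit sequence occurred in several places.

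Of 42 other factors of the neural crest and nervous system that stand in gene deserts, 29 had far pairs, 129 in all at 4.58 per Mb. Their medians were 6.26 in control and 6.20 in sgSNHG1, with 66 lower and 63 higher, 15 lower by at least 0.5 (11.6%, background 9.10%) and 14 higher (10.9%, background 5.40% and 8.40% of far pairs). EBF1, SOX6 and ZFHX3 had 12 pairs each, RBFOX1 10, ID2 9 and POU3F3 7. EBF1 is a factor of differentiating neurons and B cells, ID2 an inhibitor of basic helix-loop-helix factors, and RBFOX1 a splicing regulator of neurons. RBFOX1 had the largest median log2 ratio of the 6, at 0.27, and ID2, with 5 of 9 pairs lower, had -0.075.

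Some far pairs stood in groups with gaps of at most 10 kb between neighbouring summits. In all, 857 groups of at least 2 held 1968 far pairs (27.3%), and 15 groups had at least 5. The group with the most pairs was 25 over 51.8 kb nearest to H3-7 (chr1:143213001-143264820). The next, 11 over 20.6 kb nearest to RPIA (chr2:90380672-90401257), lies beside a centromere. In the group near H3-7 the summit sequence of 20 of the 25 pairs occurred in several places. Of the 7 pairs nearest to CA2 (chr8:85645366-85660899), 3 had such a summit, and of 7 more near H3-7 (chr1:143184656-143202896), 6. The group of 7 near ZNF33B (chr10:42067209-42086690) had 5. Groups whose summit sequences each occur once, named after their values were seen, included 6 pairs over 39.7 kb upstream of RET (chr10:42952218-42991920), the receptor of GDNF family ligands, and 6 over 22.1 kb near RYBP (chr3:72288975-72311102). The RET group had control fold enrichments of 5.37 to 9.10, 3 pairs lower and 3 higher, and the RYBP group 2.91 to 7.49, 5 lower and 1 higher.

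Repeated sequence was more frequent among the highest far pairs, though most of these had a summit sequence that occurs once. The 32 bp at the summit occurred in several places for 276 far pairs (3.83%), for 0.695% of promoter pairs, and for 23 of the 100 far pairs of highest control fold enrichment. The highest of all, at chr1:125179873-125180579 beside the centromere and nearest to SRGAP2C, had 45.7 in control and 57.3 in sgSNHG1, with pileups of 2143 and 1541 fragments, and its 32 bp occurred 31 times. The pairs at chr1:633882-634218 and chr1:629693-630021, nearest to OR4F16, lay in MTATP6P1 and MTND2P28, nuclear copies of mitochondrial genes. They had fold enrichments of 45.4 and 57.6, and of 30.1 and 37.9, with control pileups of 7694 and 5103. The mitochondrial share of the reads was not analysed here. The pair near FRG2B (chr10:133689094-133689621), in an array of DUX4 copies, had 39.6 and 59.0. H3-7 (36.7 and 37.7), WSB1 (34.4 and 42.2), TUBA3C (31.6 and 30.5), ATP6V0D2 (31.0 and 35.9), ZNF33B (31.0 and 33.1) and TPTE (27.8 and 28.9) were the nearest genes of the other 6. Of these 10, only the pair near TUBA3C was lower in sgSNHG1 in fold enrichment, whereas in scaled pileup 5 of the 10 were lower and that pair was higher.

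Pairs whose 32 bp at the summit occur once gave similar values for the zone. Only exact copies were counted, so repeats whose copies differ, such as the pair near FRG2B, remain among them. In the 6926 far pairs whose summit sequence occurs once, the median log2 ratio of fold enrichment was -0.013. By at least 0.5, 654 were lower (9.44%, background 9.10% of all pairs) and 576 higher (8.32%, background 5.40%). The pairs in MTATP6P1 and MTND2P28 count among the 6926, since mitochondrial DNA was not searched for copies. The pairs of the repeated kind scattered more widely than counting error, as 14 of 276 were lower (5.07%) and 20 higher (7.25%) by over 2 counting errors, against 1.54% and 1.75% of the others and a background of 1.52% and 1.02% of all pairs.

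The 5 farthest pairs lay on the short arms of chromosomes 21 and 22. The farthest, 5393 kb from TPTE at chr21:5128249-5128597, had 10.9 in control and 11.4 in sgSNHG1. The next 4 were nearest to OR11H1, at 4841, 4776, 4472 and 4462 kb, with control values of 9.05, 3.44, 3.40 and 4.65 and sgSNHG1 values of 6.62, 4.26, 4.22 and 3.67. They went both ways, 2 lower and 2 higher.

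Large falls among the 3077 strongest far pairs were from 13.9 to 6.99 in an intron of XRCC4 (chr5:83220337-83220681) and from 14.7 to 7.72 near MPDZ (chr9:13330538-13330976). XRCC4 is a DNA end-joining protein and MPDZ a scaffold of cell junctions. A fall from 12.1 to 6.41 was near EYA1 (chr8:71054225-71054715), a transcriptional cofactor of developing sense organs and ganglia, and a fall from 12.4 to 6.57 near STMND1 (chr6:16964675-16965145). The log2 ratios were -0.995, -0.92, -0.92 and -0.92, with counting SE of 0.32 to 0.40.

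The largest rises among the same pairs were from 6.55 to 13.5 near CTNNA3 (chr10:64846673-64846988), from 11.2 to 22.8 near RHOU (chr1:228635227-228635628) and from 6.29 to 12.4 near PKIA (chr8:78125921-78126346). The pair near RHOU lay 369 bp from RNA5S12 in the array of 5S ribosomal RNA genes. Rises from 5.16 to 9.92 near ZNF703 (chr8:37381049-37381409) and from 6.09 to 11.7 near TRIQK (chr8:92739702-92739967) followed. The log2 ratios were 1.04, 1.02, 0.98, 0.94 and 0.94, with counting SE of 0.31 to 0.40. The most extreme of 3077 ratios are expected to be large by counting alone, so such pairs mark the ends of the distribution and are no tested differences.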

How the data were processed

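ATAC-seq libraries of SK-N-BE(2)C cells, 2 control and 2 sgSNHG1, were analysed as the authors' 2 peak lists. The authors trimmed reads with cutadapt, aligned them to GRCh38 with BWA, removed duplicate, multiply mapped, mitochondrial and blacklisted reads, centred reads on the Tn5 cut, pooled the replicates and called peaks with MACS2. Versions are not given in the sources used here. Each deposited peak has a score, a fold enrichment (a ratio of summit pileup to local background, a small constant added to both), a summit position, and its p and q values as -log10. Depth per sample is unknown, since no counts per library were used.

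Pairs, distances, widths and log2 ratios were computed with Python 3.11.15, pandas 2.3.3 and scipy 1.17.1. The pileup was solved from fold enrichment and -log10 p, within 0.001 for 47609 of 47610 control and all 42682 sgSNHG1 peaks; the smallest local backgrounds were 2.20 and 1.72 fragments. Genes and starts were from GENCODE 44. Motifs were exact consensus matches, and those of CTCF, NFI, RFX, REST and NRF1 are given by name alone. Shares have 95% Wilson, differences Newcombe and medians order-statistic intervals, which cover counting error only. The solver, the pairing and the motif search were checked on simulated data.

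Chromosome 8 was left out of the printed sequences. Named members were the 10 highest, 5 farthest, 5 that fell and 5 that rose most (-log10 q of at least 10 in both), the 10 nearest and 10 host genes with most pairs, the 5 largest groups, and up to 6 genes of each list. The members, lists, motifs and limits were chosen with earlier results of these data known. Alternatives were other distances, starts, overlaps, thresholds, chromosomes, measures, windows and summits. Of the 5 that fell most, 1 is not reported here.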

Additional observations from a re-analysis of the deposited data

How the results depend on the processing

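No paired analysis was possible because the authors pooled the replicates of each group before calling peaks, and for the same reason no replicate could be left out. Of 103 values under other settings, the following moved or turned, and the others stayed within 1.5 times (counts), inside the interval of the value as reported (medians and shares) or on the same side of 0 (differences of shares). The number of far pairs was 11493 over 20 kb, 4539 over 100 kb, 11846 with gene record starts, 2428 with starts of genes of every type and 3077 with -log10 q of at least 10. The median log2 ratio of fold enrichment turned positive over 100 kb (0.000465), with starts of every type (0.0148), with overlap of at least 50% of both peaks (0.0153), with -log10 q of at least 5 (0.00192) or 10 (0.0247) and with scaled pileup (0.0176), and was -0.024 with gene record starts. Its sign therefore depends on these settings. The median log2 ratio of width was -0.42 with gene record starts, -0.37 with starts of every type, -0.24 with 50% overlap, and -0.36 and -0.32 with -log10 q of at least 5 and 10. In the same order of settings, pairs lower by at least 0.5 numbered 1126 over 20 kb, 424 over 100 kb, 1171 with gene record starts, 218 with starts of every type, 354 with 50% overlap, and 410 and 116 with -log10 q of at least 5 and 10. Pairs higher by at least 0.5 numbered 917 over 20 kb, 930 with gene record starts, 226 with starts of every type, 153 with -log10 q of at least 10 and 1059 with scaled pileup, which is 14.7% of far pairs. With scaled pileup the pairs lower by at least 0.5 also increased, to 964 (13.4%), which is within 1.5 times, so more pairs were past 0.5 in both directions. The share of all shared pairs past 0.5 in scaled pileup is not given here. Most of these counts follow the number of pairs or the stronger calls that each setting keeps; for the other moves the cause was not tested. The CTCF share was 3.63% over 20 kb, 2.14% with -log10 q of at least 10, and 2.22% and 3.49% in windows of 50 and 250 bp on either side. The AP-1 share was 7.05% at the sgSNHG1 summit, and 3.76% and 12.3% in these windows. Leaving out pairs with repeated summit sequence or pairs at non-coding starts, settings chosen after seeing the data, changed none of these results by as much. The pooled lists limit every comparison, since nothing shows how far replicates differ.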
